A study of Mus musculus with 12 samples.

Results

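Gene expression was compared between cultures of mouse embryonic stem cells that had received the same treatment but carried different biological replicate numbers. The comparison took the 4 arrays titled biological replicate 1 and the 4 titled biological replicate 3, which is 8 of the 12 arrays of the study. Members were chosen by these titles alone, and the culture condition was kept as a block, so that each replicate 1 array was set against the replicate 3 array of its own condition. The cells were the D3 line, a pluripotent mouse line, and all were held for 7 days in stem cell medium with 15% serum. The 4 conditions were LIF at 1000 units per ml, the same with lithium, medium without LIF, and medium without LIF but with lithium, at a lithium dose the labels give as 50 nM. The labels do not say whether a replicate number marks a shared day, thaw or passage, and the numbers have no order. The p values of a replicate difference set it against its spread over the 4 conditions, for these cultures of 1 line only. Arrays that share a number may not be independent. If a number marks 1 batch, then 1 batch was compared with 1 other, and the p values do not measure the spread between batches. The differences may be technical in part.

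LIF is a cytokine whose receptor activates STAT3, a transcription factor, and it holds mouse embryonic stem cells in a self-renewing state in serum. When it is withdrawn, genes of the pluripotency network decline and genes of the primed epiblast, mesoderm, endoderm and trophoblast come up. Lithium inhibits the kinase GSK3 and thereby stabilises beta-catenin, the effector of canonical Wnt signalling. Even with LIF, serum cultures are mixtures of more and less committed cells, so cultures of 1 line can differ in their make-up. On bulk RNA, fewer cells of a type and less RNA per cell cannot be told apart.

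Each value is a signal, the brightness that the MAS5 algorithm assigns to a probe set, which is the group of array probes meant to detect 1 transcript. The 2% trimmed mean of every array was 100, so each array had been scaled to the same target. Differences are given as log2 of replicate 1 over replicate 3, where 1 stands for a 2-fold difference, averaged over the 4 conditions with the standard error (SE) of the fit. A probe set is called when limma's moderated test gives it a p under 0.05 after Benjamini-Hochberg adjustment across all 27022 probe sets. A gene is represented by its brightest probe set, which gives 12737 genes; sets whose probes may match several transcripts (suffix x_at) stand in where no set of another kind was tested. A set of that kind was brighter than the one used for 469 genes, and for 49 of them it differed in whether it was called, with 0 called in opposite directions. Where signals are listed, they follow the order LIF, LIF plus lithium, LIF-free and LIF-free plus lithium.

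Replicate 1 differed from replicate 3 at 3639 of 27022 probe sets, or 13.5%. Of these, 2792 were higher in replicate 1, or 10.3% of those tested, and 847 were lower, or 3.13%. Over genes the split was nearly even: 1134 of 12737 were called (8.9%), 616 higher (4.84%) and 518 lower (4.07%). The differences toward higher signal were also the larger ones, with 1970 of the calls at least 2-fold higher and 150 at least 2-fold lower. The direction was shared across conditions for 3595 of the 3639 calls, against 35.6% of all probe sets tested. The fit calls differences that are steady over the conditions, so much of this agreement follows from the selection. The share of calls that were higher in replicate 1 was 76.7%, and it depended on the scaling: it was 63.8% after quantile normalization, 57.6% with arrays centred on the median of the tested probe sets and 25.5% with arrays centred on the median of all probe sets. The last of these moved the median log2 difference of the probe sets tested from 0.05 to -0.34, so differences under that scaling are read relative to it. It called 1.12% of genes higher and 22.3% lower, which is the background for the list counts given with it below. Leaving out the LIF plus lithium array of replicate 1 left 1738 calls, the fewest of the 8 fits with 1 array left out, and leaving out that of replicate 3 left 1948. Without the LIF-free arrays of replicates 1 and 3 there were 2162 and 2357 calls.

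Replicate 1 was the number that stood apart. Against replicate 2 it gave 3040 calls (11.3%), 2097 higher (7.76%) and 943 lower (3.49%) in replicate 1. Replicates 2 and 3 gave 65 (0.241%), 63 higher (0.233%) and 2 lower (0.0074%) in replicate 2. Deviations of each array from its condition mean were correlated over probe sets between replicate 1 arrays of different conditions, with r from 0.385 to 0.542 over the 6 pairs. For replicate 3 the same values were 0.181 to 0.379, and for replicate 2 they were 0.032 to 0.188. Arrays numbered 1 and 3 from different conditions correlated at -0.441 to -0.249. Because the condition mean was subtracted, the deviations within a condition cancel. Positive values within a number therefore bring negative values between numbers, and the negative values are not a separate result. Of the sum of squares over all probe sets tested, condition took 40.7%, replicate number 29.8% and the remainder 29.5%. These correlations are over probe sets, which share arrays and scaling, and are given as a description.

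**Figure D1:**
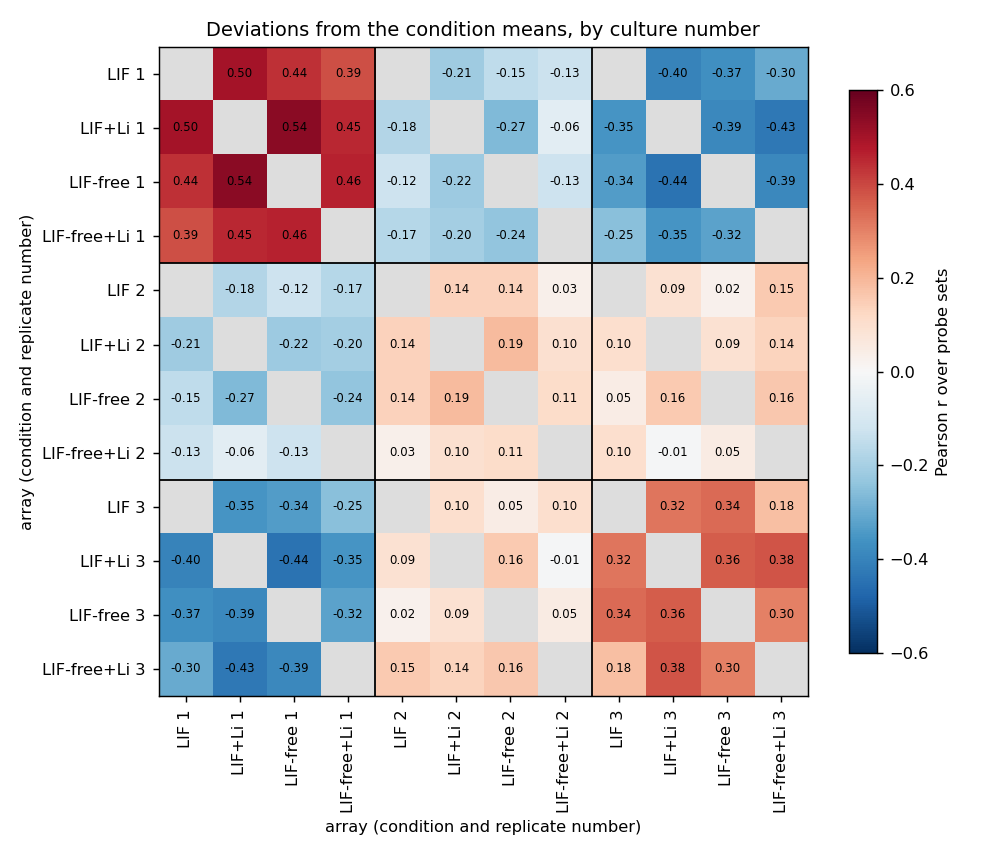
Pearson r over 27022 probe sets between the deviations of each pair of arrays from their condition means, ordered by replicate number; grey cells are pairs of the same condition. The replicate 1 block at the upper left is red throughout (0.385 to 0.542), and its pairs with replicate 3 are blue (-0.441 to -0.249).

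Several measures of the arrays themselves moved with the replicate number. The median signal was 17.4 ± 1.43 (SD, n = 4) in replicate 1 and 13.5 ± 2.93 in replicate 3. The signal of 18S ribosomal RNA was 760 ± 144 against 304 ± 226, and that of the control for the B1 repeat, an abundant short interspersed element, was 4273 ± 681 against 2894 ± 590. The ratio of 3′ to 5′ signal of actin, a measure of RNA integrity and labelling, was 1.79 ± 0.144 against 1.53 ± 0.107. Each of these was higher in replicate 1 in 4 of 4 conditions, while the Gapdh ratio was lower in 4 of 4, at 0.774 against 0.809. The labelling spikes phe and lys were lower in 4 of 4, at 86.3 against 132 and 69.0 against 98.2. A 2-sided exact permutation test by sign flips cannot go below p = 0.125 with 4 conditions, and each of these 7 measures reached that value. Other measures differed in sign between conditions. The B2 repeat control was at 8888 against 8599 (higher in 3 of 4, exact p = 0.875). The spikes bioB, bioC and cre were higher in 3 of 4 (0.625, 0.5 and 0.875), as was the transferrin receptor ratio (0.25). The pyruvate carboxylase ratio and the dap spike were higher in 1 of 4 (0.625 and 0.25). The share of probe sets under a signal of 1 was higher in 2 of 4 (0.5). The part of all these measures in the results that follow was not tested.

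Of 30 genes of the pluripotency network tested, 11 were called lower in replicate 1 and 0 higher, where 4.07% of all genes were called lower, and the median difference of the list was -0.42 against -0.02 for all genes tested. The 11 were Fgf4, Utf1, Klf4, Pou5f1, Tcl1, Esrrb, Klf2, Nanog, Mybl2, Prdm14 and Sox2. The list kept its direction in each condition, with medians of -0.45, -0.17, -0.31 and -0.94. Its median was between -0.81 and -0.22 over the alternative settings and the fits with 1 array left out, and these called between 0 and 20 members lower. The 0 came without a condition term, and 1 was called without an intensity trend in the variance, a setting that also ended every call of the BMP and redox lists below and left 7 imprinted and 4 splicing genes called.

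Fgf4, the growth factor through which stem cells prime themselves for differentiation, had the smallest p of the list. Its signal was 353, 443, 81.3 and 59.1 in replicate 1 and 735, 780, 168 and 177 in replicate 3. Each replicate 1 culture lay below its replicate 3 partner, and replicate 2, at 680, 785, 154 and 168, lay beside replicate 3. The difference was -1.13 ± 0.15 (SE; limma adjusted p = 0.000951), and the other 2 probe sets of the gene gave -0.99 and -1.30.

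The core factors differed less. Pou5f1, which encodes OCT4, had signals of 1371, 1760, 685 and 509 in replicate 1 and 3334, 2415, 938 and 1014 in replicate 3, a difference of -0.80 ± 0.15 (adjusted p = 0.00705). Nanog was at 1326, 1352, 680 and 431 against 1762, 1878, 1120 and 1181, and differed by -0.76 ± 0.17 (adjusted p = 0.013). Sox2 differed by -0.65 ± 0.17 (adjusted p = 0.0255), and its call was lost in 4 of the 8 fits with 1 array left out, at most adjusted p = 0.107 without the LIF-free plus lithium array of replicate 1. For Pou5f1 and Nanog replicate 2 fell between the other numbers in each condition except Nanog with LIF plus lithium, where it was the highest at 1895.

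Factors of the naive state, which the LIF pathway sustains, were among the called members. Klf4 was at 1075, 1302, 252 and 261 in replicate 1 and 1778, 1947, 389 and 379 in replicate 3, a difference of -0.62 ± 0.11 (adjusted p = 0.00554). Esrrb, an orphan nuclear receptor, differed by -0.88 ± 0.18 (adjusted p = 0.00869). Zfp42, the marker known as Rex1, was not called: it was at 2916, 2879, 1406 and 925 against 2973, 2963, 1461 and 1555, a difference of -0.22 ± 0.14 (adjusted p = 0.362). Its 3 other conditions were nearly equal, and its value rested on the LIF-free plus lithium pair. Dppa4, Sall4, Tfcp2l1 and Tbx3 were also not called, with differences of -0.09, 0.02, -0.12 and -0.04.

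Direct targets of LIF and STAT3 split. Of 20 tested, 4 were lower in replicate 1 and 1 was higher, with a list median of -0.23. The shares over all genes were 4.07% lower and 4.84% higher. Icam1, an adhesion molecule induced by STAT3, was at 214, 282, 75.0 and 64.2 in replicate 1 and 629, 489, 117 and 146 in replicate 3 (-1.04 ± 0.17, adjusted p = 0.00284). Pim3 and Pim1, kinases that promote survival, differed by -0.93 and -0.56, and Klf4 is the fourth. A brighter x_at set of Pim3 gave -0.46 and was not called (adjusted p = 0.102). The receptor subunit Lifr went the other way, at 563, 507, 407 and 433 against 368, 357, 218 and 237 (0.72 ± 0.13, adjusted p = 0.00465), and was not called with arrays centred on the median of all probe sets. Dimmer probe sets of Lifr gave -0.13 and 0.04 and were not called. Socs3, the feedback inhibitor of the pathway, was not called on the set used: 209, 219, 66.5 and 85.5 against 573, 273, 82.2 and 77.1 (adjusted p = 0.2), with the gap largest in the LIF pair. Its brightest set, an x_at set, was called at -0.56 (adjusted p = 0.0283), and the set used was called with arrays centred on the median of all probe sets (adjusted p = 0.0169).

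The Icam1 promoter is shown because it is the only called member of this list whose promoter held the STAT3 motif TTCCNGGAA. The motif was not counted in members that were not called. The window runs from 250 bases before to 50 after the start of the RefSeq gene on the plus strand of GRCm38.p6, and capitals mark the match; the same letters occurred on either strand in the promoters of 1.3% of 27025 genes.
Icam1, chr9:21015690-21015989: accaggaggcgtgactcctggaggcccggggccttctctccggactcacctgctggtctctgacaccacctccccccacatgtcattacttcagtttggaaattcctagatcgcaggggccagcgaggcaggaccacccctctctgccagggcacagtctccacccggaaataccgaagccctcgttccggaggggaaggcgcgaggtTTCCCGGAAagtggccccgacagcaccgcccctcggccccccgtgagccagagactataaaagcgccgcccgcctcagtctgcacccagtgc

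The 12 largest differences upward included genes known from mesoderm or mesenchyme, a grouping made after their values were seen. Genes were named by size only if their difference had 1 sign in all 4 conditions. That agreement between conditions therefore follows from the rule. Cdh11, a cadherin of mesenchymal cells, was at 42.6, 8.999, 241 and 348 in replicate 1 and 4.84, 1.02, 36.9 and 25.9 in replicate 3. The difference was 3.18 ± 0.28 (adjusted p = 0.000101), at 2.70 to 3.75 in the 4 conditions. Replicate 2 lay with replicate 3 in the presence of LIF, at 3.21 and 1.91, and nearer to replicate 1 without it, at 181 and 159.

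Cdh2, the N-cadherin that replaces E-cadherin as cells leave the epithelial state, was likewise highest in replicate 1 in each condition. Its signal was 147, 60.9, 384 and 304 in replicate 1, 25.2, 17.2, 307 and 264 in replicate 2, and 21.9, 8.81, 103 and 111 in replicate 3. The difference between replicates 1 and 3 was 2.22 ± 0.23 (adjusted p = 0.000233), and its second probe set gave 1.75. Nrp1, a co-receptor for semaphorins and VEGF, was at 85.5, 22.4, 290 and 367 against 10.4, 2.84, 59.7 and 117 (2.49 ± 0.25, adjusted p = 0.00019), and its 4 probe sets gave 2.09 to 2.91.

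Factors and receptors of lateral and cardiac mesoderm followed. Hand2, a transcription factor of the heart and limb fields, was at 21.7, 6.62, 131 and 139 against 7.18, 2.12, 27.4 and 22.7 (2.03 ± 0.31, adjusted p = 0.002). The gene of the apelin receptor, Aplnr, active as mesoderm forms, was at 70.6, 27.3, 424 and 250 against 13.9, 0.137, 163 and 157 (2.29 ± 0.51, adjusted p = 0.0135). Every replicate 1 culture was above its partner for both genes, as the rule for naming required. The LIF plus lithium value of Aplnr in replicate 3 was below the floor of 1 at which signals were set. Cd44, the hyaluronan receptor, and Rspo3, a secreted enhancer of Wnt signalling, differed by 2.05 ± 0.33 and 2.36 ± 0.42 (adjusted p = 0.00247 and 0.00464). Postn, a matrix protein of mesenchyme, had the largest difference of the named genes, 3.19 ± 0.49 (adjusted p = 0.00188). It was at 29.0, 9.28, 75.5 and 108 against 0.948, 0.745, 16.4 and 18.95.

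The size of these differences rests partly on replicate 3 signals near background. After 16 was added to every signal before the logarithm, the 12 largest differences toward replicate 1 ranged from 1.01 to 1.96, with Postn at 1.33, Cdh11 at 1.86, Cdh2 at 1.71 and Aplnr at 1.22. All 12 kept their call in each of the 8 fits with 1 array left out. The other members of the 12 were Zfp950, Kcnq1ot1, Zfp982 and Hsd11b2, the enzyme that inactivates corticosterone, at 1.98 ± 0.43 (adjusted p = 0.0125). Zfp982 was at 2.11 on the set used (mean signal 52.0) and at 0.61 on an x_at set with a mean signal of 930.2 (adjusted p = 0.0383). Zfp950 was at 2.93 on the set used (mean signal 31.6). A dimmer second set of it, with a mean signal of 9.96, gave 0.38 and was not called (adjusted p = 0.687).

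**Figure D2:**
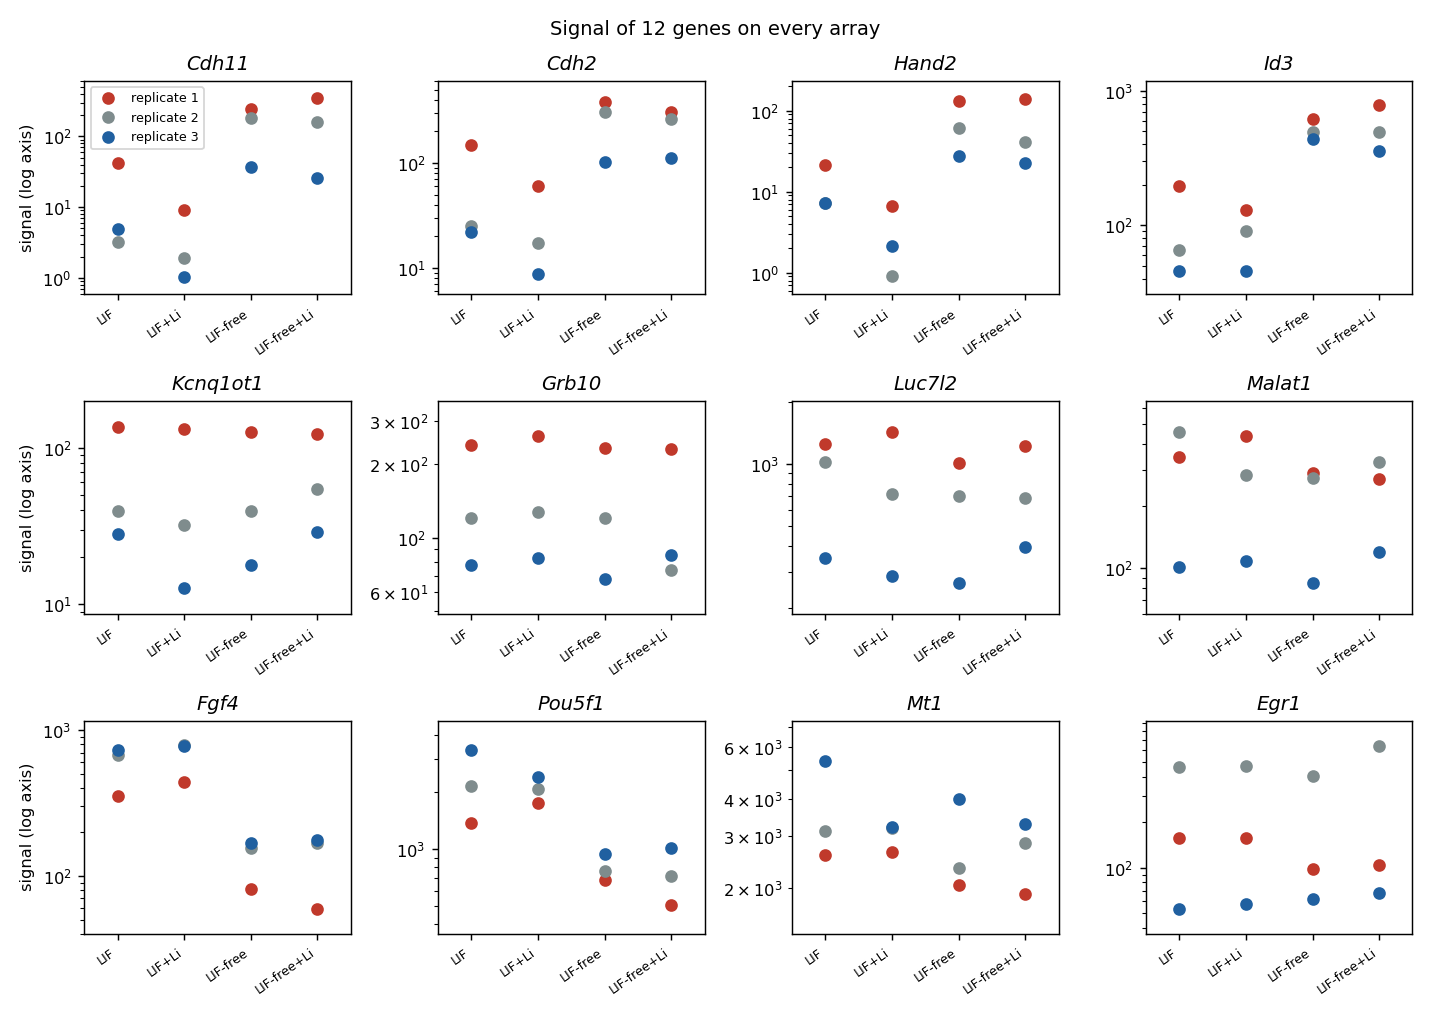
Signal (log axis) of 12 genes on all 12 arrays by culture condition; each point is 1 array, coloured by replicate number. Cdh11, Cdh2, Hand2 and Id3 were higher in replicate 1 in each condition and also higher without LIF, Kcnq1ot1 and Grb10 were higher in replicate 1 at a similar level in all conditions, and Egr1 was highest in replicate 2.

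The marker lists of differentiated cells leaned upward without many calls. Over all genes tested 4.84% were called higher and 4.07% lower, which is the background for each list here. Of the cardiac and lateral mesoderm list, 3 of 22 genes were higher and 0 lower (Hand2, Aplnr and the smooth muscle actin Acta2), with a median of 0.46, and the sum of the list was 1322 to 2438 in replicate 1 and 756 to 1883 in replicate 3. The heart genes Myl2, Myl7 and Nkx2-5 were at or below a signal of 47.3 on every array and were not called. Of the trophoblast list, 4 of 15 were higher and 0 lower: Peg10, Plac1, Cdx2 and the keratin Krt8, with differences of 0.97, 0.87, 0.97 and 0.49. These 4 calls were lost in 2, 4, 6 and 6 of the 8 fits with 1 array left out, with adjusted p up to 0.0507, 0.11, 0.103 and 0.201. Of the endoderm list, 3 of 24 were higher (Pdgfra, Foxa1, Cited1) and 1 lower (Apoe, the lipid carrier), with a median of 0.19; the median was -0.20 with arrays centred on the median of all probe sets. The calls of Pdgfra, Foxa1 and Cited1 were each lost in 6 of the 8 fits (at most 0.113, 0.119 and 0.201) and that of Apoe in 2 (0.1). The neural list had 1 of 12 higher, Sox11, at 0.80 ± 0.19 (adjusted p = 0.0187, lost in 4 of 8 fits, at most 0.113), and the endothelium and blood list had 1 of 10 higher, Lmo2, whose call was lost in each of the 8 fits (at most 0.12). It had 1 lower, Pecam1, which stem cells themselves express (-1.13 ± 0.21, adjusted p = 0.00576). Centring arrays on the median of all probe sets left 2 cardiac, 0 trophoblast, 0 endoderm, 0 neural and 1 endothelium or blood gene higher. In that setting 1, 0, 4, 1 and 1 genes of these lists were lower.

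Markers of fibroblasts, which can stand for feeder cells, also moved with the replicate number. Of 16 tested, 5 were higher in replicate 1 and 0 lower, where 4.84% of all genes were called higher: Vim, Postn, Cxcl12, Col5a1 and Col1a1, with a list median of 0.48 and a summed signal of 1295 to 3229 against 1061 to 1949. The intermediate filament Vim was at 954, 704, 2256 and 2195 against 379, 431, 1249 and 1161 (0.95 ± 0.13, adjusted p = 0.00107). The defining fibroblast genes were low: Col1a1 was at 16.7, 8.10, 25.5 and 40.8 in replicate 1 and 1.95, 5.35, 8.91 and 13.9 in replicate 3, and Col1a2 and Thy1 were not called (0.32 and -0.28). The labels give no feeder layer, and the part of such cells in the differences was not tested. With 1 array left out 2 (either LIF array) or 3 (any of the others) were higher, and with arrays centred on the median of all probe sets 1 was. The calls of Cxcl12 and Col5a1 were lost in 4 and 8 of the 8 fits with 1 array left out, with adjusted p up to 0.106 and 0.101.

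Of 23 BMP, Nodal and Id genes, 5 were higher in replicate 1 and 1 lower, where 4.84% and 4.07% of all genes were called, and the median was 0.19. With arrays centred on the median of all probe sets 2 were higher and 5 lower, with a median of -0.20. Leaving out 1 array left 2 to 4 higher, the fewest without the LIF-free plus lithium array of replicate 1, and the median turned to -0.05 without either LIF-free plus lithium array. Id3, an inhibitor of differentiation factors induced by BMP, was at 196, 130, 617 and 789 against 45.8, 46.0, 440 and 358 (1.31 ± 0.22, adjusted p = 0.00329). The ligand Bmp2 was at 80.9, 29.3, 238 and 360 against 10.4, 16.8, 147 and 145 (1.44 ± 0.32, adjusted p = 0.0144), and its call was lost in 1 of 8 fits, at 0.051 without the LIF-free plus lithium array of replicate 1. Msx1, Msx2 and Id2 differed by 1.10, 0.83 and 0.59, and Msx2 lost its call in 4 fits (at most 0.0899). Nodal, a ligand of the activin branch, was lower, at 145, 177, 197 and 148 against 223, 271, 264 and 202 (-0.53 ± 0.13, adjusted p = 0.0253), a call lost in 6 of 8 fits, at most 0.131.

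Targets of Wnt and beta-catenin had a median of 0.50, with 2 of 15 called higher. Over all genes 4.84% were called higher and 4.07% lower, the background for each list of this paragraph. Lef1, a nuclear partner of beta-catenin, was at 37.0, 15.95, 89.2 and 103 against 7.84, 6.05, 26.2 and 23.4 (1.88 ± 0.27, adjusted p = 0.00132), and replicate 2 without LIF, at 91.8 and 91.3, was close to replicate 1. Axin2, the most general target of the pathway, was at 33.2, 35.4, 73.0 and 69.0 against 17.8, 14.7, 56.8 and 50.7, a difference of 0.74 ± 0.23 that missed the threshold (adjusted p = 0.0614). The other call was Cdx2. The primed epiblast list had 3 of 18 higher (Cdh2, Lef1 and Sox4) and a median of 0.03, and the primitive streak list had 1 of 14 lower (Nodal) and 0 higher with a median of 0.52. Sox4 lost its call in 3 of 8 fits, at most 0.113.

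The direction of the calls was set beside LIF withdrawal in replicate 2, whose arrays are not part of the comparison and hold 1 culture per condition, so that no test of LIF was made there. In replicate 2, LIF-free minus LIF had a median of 0.50 over the 616 genes called higher in replicate 1, with 77.6% positive and 32.3% at least 2-fold up. Over the 518 genes called lower the median was -0.54, with 86.7% negative and 24.7% at least 2-fold down. The same shares over all genes tested were 53.3% positive, 46.1% negative, 10.5% at least 2-fold up and 5.74% at least 2-fold down, with a median of 0.05. Over the 12737 genes, Pearson's r between both differences was 0.449 and Spearman's rho 0.42, given as a description, since genes are not independent replicates. Single genes departed from this: Kcnq1ot1, Zfp950 and Malat1 differed by 2.63, 2.93 and 1.68 between replicates 1 and 3 and by 0.38, 0.28 and -0.27 with LIF withdrawal in replicate 2, while Cdh11 and Aplnr changed by 6.10 and 7.40.

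**Figure D3:**
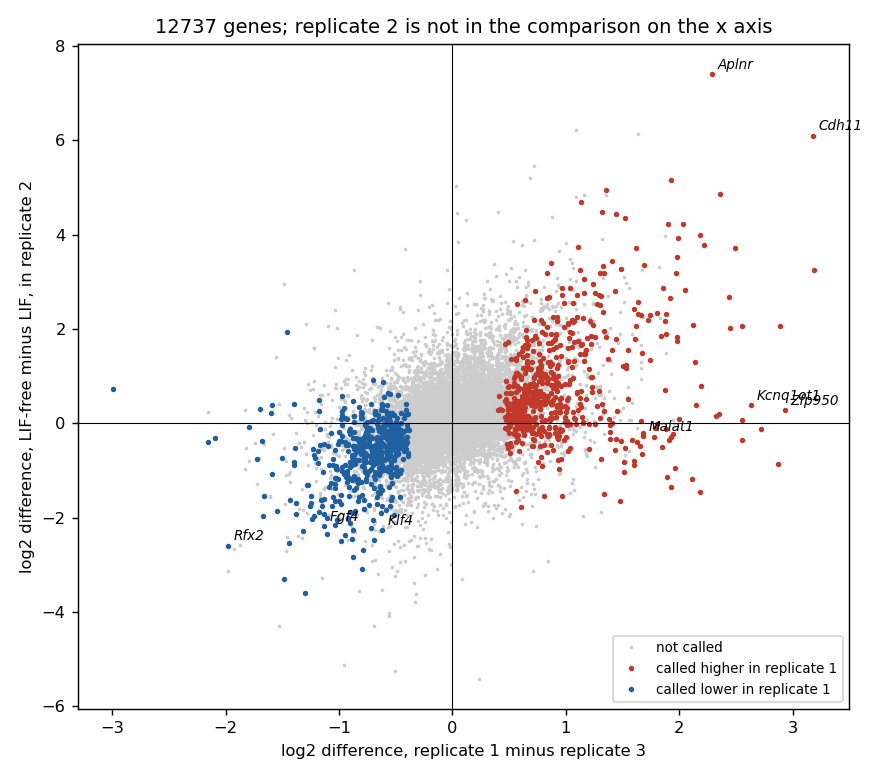
Each point is a gene: the x axis is log2 replicate 1 minus replicate 3 over the 4 conditions, and the y axis is log2 LIF-free minus LIF in replicate 2. Genes called higher in replicate 1 (red) have a median of 0.50 on the y axis and genes called lower (blue) a median of -0.54, with Kcnq1ot1, Zfp950 and Malat1 near 0.

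Imprinted genes, which are expressed from 1 parental copy, had the highest list median, 0.63, against -0.02 for all genes. Of 27 tested, 13 were higher in replicate 1 and 0 lower, where 4.84% of all genes were called higher. The count was 9 to 12 in the 8 fits with 1 array left out and 6 with arrays centred on the median of all probe sets, where 1 member was lower. The median was positive in each condition, at 0.69, 0.80, 0.44 and 0.65.

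Kcnq1ot1, the long non-coding RNA that silences its imprinted domain, was at 136, 132, 125 and 122 in replicate 1 and 28.2, 12.7, 17.8 and 29.1 in replicate 3. Replicate 2, at 39.5, 32.3, 39.5 and 54.4, was nearer to replicate 3, and neither number overlapped with replicate 1. The difference was 2.63 ± 0.24 (adjusted p = 0.000123), and its 3 probe sets gave 2.63 to 3.43.

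Grb10, an adaptor that restrains insulin and growth factor signalling, was likewise nearly the same in the 4 conditions. It was at 240, 261, 233 and 232 against 77.4, 82.8, 67.8 and 85.4 (1.63 ± 0.14, adjusted p = 0.000114), and its other probe sets, at 1.05 and 1.92, were not called. Peg3, Plagl1, Igf2 and Mest combined a replicate difference with higher signal in LIF-free cultures. Peg3, a zinc-finger regulator, was at 819, 567, 2319 and 2864 against 220, 171, 1183 and 1303 (1.43 ± 0.16, adjusted p = 0.000351), and its 3 probe sets gave 1.43 to 1.56. Plagl1, Igf2 and Mest differed by 1.22, 0.85 and 0.89.

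The list held both maternally and paternally expressed genes. Igf2r, Meg3, Cdkn1c and Ube3a, known as maternally expressed in mouse, differed by 0.76, 2.18, 0.73 and 0.63, while the paternally expressed Peg10, Impact and Airn differed by 0.97, 0.79 and 1.15. Meg3 was low, at 42.1, 75.8, 38.2 and 33.8 against 22.8, 9.24, 4.11 and 11.2. Members not called included Dlk1 at 0.37, Nnat at 0.16, Snrpn at -0.29 and Gnas at -0.04.

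Splicing and RNA-binding factors, together with nuclear-retained RNAs, had 10 of 32 members higher and 0 lower, where 4.84% of all genes were called higher, and a median of 0.24. Without the LIF plus lithium array of replicate 1 or 3 there were 4 and 5, and without the LIF-free array 6 and 7. With arrays centred on the median of all probe sets the median was -0.15, with 3 higher and 1 lower. Luc7l2, a U1 snRNP-associated factor, was at 1245, 1432, 1010 and 1227 in replicate 1, 1022, 712, 701 and 682 in replicate 2 and 351, 287, 264 and 397 in replicate 3. In each condition replicate 1 was the highest and replicate 3 the lowest, and the difference between them was 1.93 ± 0.14 (adjusted p = 6.46e-05).

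Malat1, a nuclear non-coding RNA of speckles, had another order. It was at 346, 437, 290 and 270 in replicate 1, 459, 282, 273 and 328 in replicate 2, and 102, 108, 84.6 and 120 in replicate 3. Replicate 3 alone was apart: replicates 1 and 2 differed by 0.01 (adjusted p = 0.988), whereas replicates 1 and 3 differed by 1.68 ± 0.16 (adjusted p = 0.000146). Neat1, the RNA of paraspeckles, was set apart in replicate 1, by 0.71 from replicate 3 and by 1.03 from replicate 2. The speckle protein Son differed by 1.06 ± 0.13 (adjusted p = 0.000587) and the kinase Prpf4b by 0.99 ± 0.16 (adjusted p = 0.00221). Srrm2, Luc7l3, Srsf5, Rbm5 and Hnrnph1 differed by 0.57, 0.66, 0.56, 0.44 and 0.42, and Hnrnpa1, Hnrnpc, Srsf3 and Sf3b1 were not called.

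**Figure D4:**
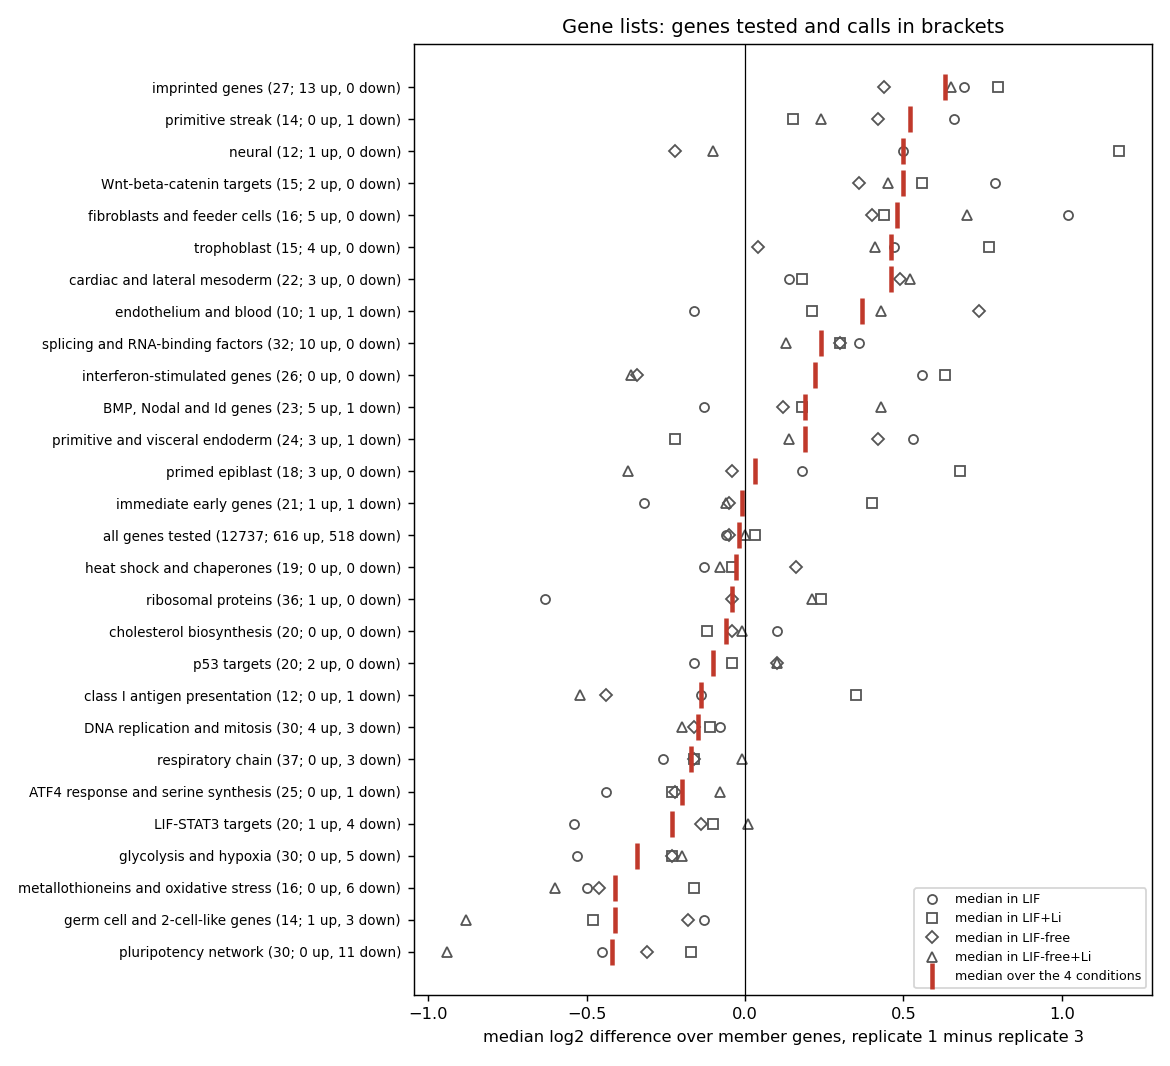
Median log2 difference (replicate 1 minus replicate 3) over the genes of each list with at least 10 genes tested; open symbols are single conditions, red bars the fit over all 4, and brackets give the genes tested and the calls up and down in replicate 1. Imprinted genes are at the top (0.63, 13 of 27 up) and the pluripotency network at the bottom (-0.42, 11 of 30 down), while all 12737 genes have a median of -0.02.

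Probe sets of 1 gene often differed in whether they were called, and seldom in the direction of a call. Over all probe sets tested 13.5% were called, so a further set that was not called is common by that share. Of 6042 genes with at least 2 probe sets tested, 1063 had a set called higher in replicate 1, and in 992 of these another set was not called or was lower. Rtn4, chosen after its values were seen, had sets at 2.33 and 2.34 (both adjusted p = 6.46e-05) and others at -0.25, -0.07 and 0.15, the last being its brightest. For the splicing factor Rbm39 the 12 sets ranged from 0.08 to 2.44, and its brightest set, at 0.36, was not called. Luc7l2 sets ranged from 0.28 to 2.09 and Malat1 sets from 0.90 to 2.13. In contrast every set tested of Cdh2, Nrp1, Fgf4, Peg3 and Kcnq1ot1 was called, in the same direction within each gene. Among genes with a set called lower, 334 of 378 had another that was not called or was higher. Of the 1420 genes with a called set, 21 had sets called in opposite directions.

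Probe sets to which the platform annotation gives no gene symbol held a large share of the calls. They were 11.8% of the probe sets tested but 37.9% of those called higher and 4.49% of those called lower. Of 3189 tested, 1057 were higher in replicate 1 (33.1%) and 38 were lower, and their median difference was 0.65, with 0.39, 0.97, 0.61 and 0.86 in the 4 conditions. The difference from replicate 2 had a median of 0.51, and replicates 2 and 3 differed by 0.18. The gap was present at matched signal: when the probe sets were split into 5 equal classes of mean signal, in the class from 14.9 to 34.8, 51.4% of the sets without a symbol were called higher, against 10.8% of those with one. In the brightest class these shares were 11.6% and 5.53%. Replicate number took 50.2% of the sum of squares of these probe sets and condition 24.1%, whereas for sets with 1 symbol the shares were 23.6% and 45.8%. The 18S and B1 repeat signals described above were also higher in replicate 1 in 4 of 4 conditions, while the B2 repeat control was higher in 3 of 4. The part of 18S and repeat signals in this was not tested.

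**Figure D5:**
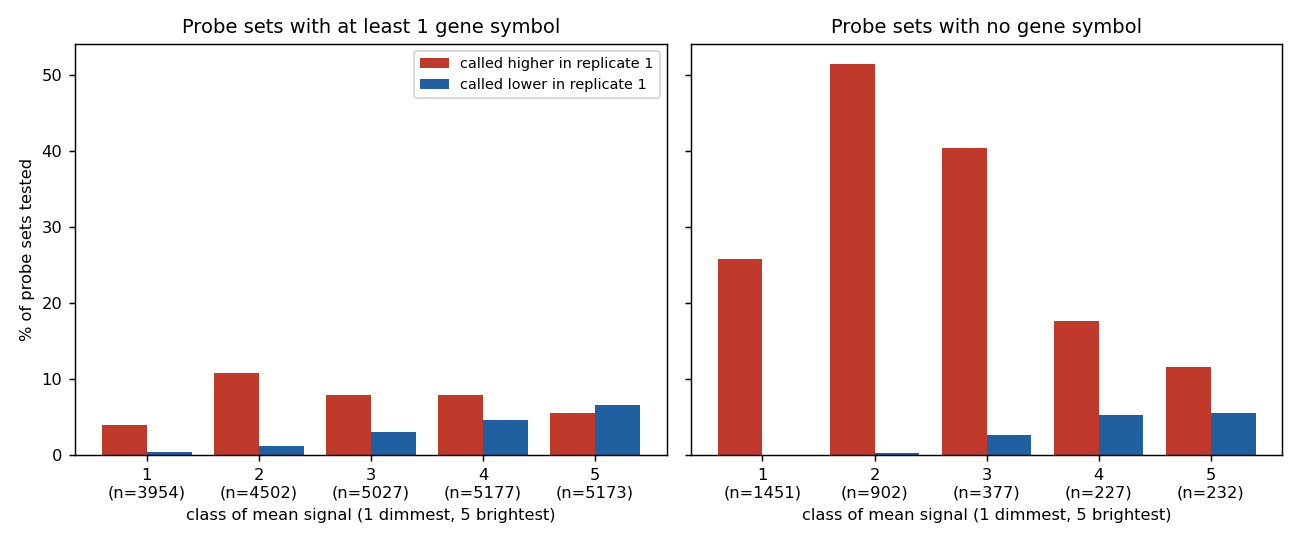
Percentage of probe sets called higher (red) or lower (blue) in replicate 1 in 5 equal classes of mean signal, for sets with at least 1 gene symbol (left) and none (right); n is the number tested. In class 2 (signals of 14.9 to 34.8) 51.4% of the sets without a symbol were called higher, against 10.8% with one.

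At the lower end, 6 of 16 genes of redox defence and metal binding were called lower in replicate 1 and 0 higher, where 4.07% of all genes were called lower, and the median was -0.41. Leaving out 1 array gave 1 to 5 lower, with 1 without any of the LIF-free or LIF-free plus lithium arrays, and 12 were lower with arrays centred on the median of all probe sets. Mt1, a metallothionein that binds zinc and copper, was at 2590, 2638, 2050 and 1914 in replicate 1 and 5384, 3219, 4006 and 3294 in replicate 3 (-0.77 ± 0.14, adjusted p = 0.00517). Every replicate 1 culture was lower, and replicate 2, at 3121, 3204, 2338 and 2838, lay between the other numbers in each condition. A second probe set of Mt1 gave 0.25 (adjusted p = 0.686). The second metallothionein, Mt2, was at 3102, 3634, 2697 and 2567 against 4464, 3703, 4414 and 3873 (-0.46 ± 0.14, adjusted p = 0.0457). The glutathione genes Gstm1, Gclm and Gsta4 and the catalase gene Cat differed by -0.68, -0.62, -0.46 and -0.55. The calls of Gstm1, Cat and Gsta4 were lost in 4, 6 and 6 of the 8 fits with 1 array left out, with adjusted p up to 0.0623, 0.164 and 0.172.

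The Mt1 and Mt2 promoters are shown because these neighbouring genes moved together. The windows are 300 bases of GRCm38.p6 from RefSeq, on the plus strand, and capitals mark the metal response motif TGCGCNC on either strand, which the promoters of 17.0% of 27025 genes held. It was found in 3 of the 5 called members of the list with a promoter in the table (Mt1, Mt2 and Gclm). Members not called were not counted, so this cannot bear on the replicate difference.
Mt1, chr8:94178839-94179138: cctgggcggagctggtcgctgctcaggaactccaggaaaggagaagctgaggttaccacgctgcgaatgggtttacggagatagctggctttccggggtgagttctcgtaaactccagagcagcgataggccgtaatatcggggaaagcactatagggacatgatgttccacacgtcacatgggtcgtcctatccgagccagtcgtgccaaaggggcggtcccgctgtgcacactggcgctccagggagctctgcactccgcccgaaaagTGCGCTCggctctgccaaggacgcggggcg
Mt2, chr8:94172368-94172667: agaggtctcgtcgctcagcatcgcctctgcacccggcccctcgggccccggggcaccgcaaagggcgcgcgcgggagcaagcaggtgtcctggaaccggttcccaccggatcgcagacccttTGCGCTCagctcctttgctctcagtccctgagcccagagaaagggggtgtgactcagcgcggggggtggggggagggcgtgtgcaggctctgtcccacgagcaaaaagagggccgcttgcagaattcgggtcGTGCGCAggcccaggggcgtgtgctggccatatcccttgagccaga

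Of 30 genes of glycolysis and the hypoxia response, 5 were called lower and 0 higher, where 4.07% of all genes were called lower, and the median was -0.34. The count was 8 after quantile normalization and 22 with arrays centred on the median of all probe sets. With 1 array left out it was 2 (LIF plus lithium or LIF-free), 3 (LIF-free plus lithium) or 6 (LIF), whichever number the array had. Ddit4, an inhibitor of mTORC1 induced by hypoxia and energy stress, was at 534, 577, 449 and 391.9 against 1105, 911, 871 and 774 (-0.91 ± 0.12, adjusted p = 0.000898). Replicates 1 and 3 did not overlap for this gene. Bhlhe40, Aldoc, Pgam1 and Bnip3 differed by -0.66, -0.71, -0.50 and -0.45, and the calls of Aldoc and Pgam1 were lost in 4 and 6 of 8 fits, at most 0.0821 and 0.0787. The core hypoxia motif ACGTG was found in the promoters of all 4 called members in the table (Ddit4, Aldoc, Pgam1 and Bnip3), against 21.8% of 27025 genes. The list was drawn up from hypoxia and glycolysis genes, and members not called were not counted. The motif count therefore cannot bear on the replicate difference. Other targets of hypoxia were not called, among them Vegfa at -0.10, Slc2a1 at -0.04, Pdk1 at -0.01 and Car9 at -0.52.

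Ndufa4l2, a mitochondrial protein induced by hypoxia that was in no list, was among the largest differences downward. It was at 59.7, 72.5, 18.6 and 27.1 in replicate 1 and 462, 181, 59.6 and 45.3 in replicate 3 (-1.67 ± 0.30, adjusted p = 0.00448). The respiratory chain list had 3 of 37 lower and 0 higher, where 4.07% of all genes were lower, with a median of -0.17: Uqcrc1 at -0.76, Sdhc at -0.71 and Ndufb8 at -0.54. With arrays centred on the median of all probe sets 24 of the 37 were lower, with a median of -0.57, and 8 were lower with the spread taken from all 12 arrays. The count was 1 without either LIF plus lithium array and 2 to 4 without any other. The calls of Sdhc and Ndufb8 were each lost in 4 of 8 fits, at most 0.0668 and 0.141.

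Among genes named by size (called, with 1 sign in all conditions and a mean signal of at least 50 in the higher number) the largest difference downward was that of Rfx2, a transcription factor of ciliated and germ cells, at 38.2, 31.3, 6.86 and 2.03 against 124, 53.03, 20.04 and 30.3 (-1.98 ± 0.44, adjusted p = 0.0145). A dimmer second set of Rfx2 (mean signal 12.2, against 36.2 for the set used) went the other way. It gave 1.19 and was not called (adjusted p = 0.237). The others of the 12 were Smc1b (a meiotic cohesin subunit), Plvap, Capn5, Rundc3a, Fbxo2, the homeobox gene Vax2, Arrdc2, Mfsd13a, Rgcc and Tcp11, with differences from -1.66 to -1.25. Their signals were at most 275. After 16 was added to every signal the 12 ranged from -1.36 to -0.83. Smc1b, Capn5 and Arrdc2 lost their call in 1 of 8 fits (at most 0.0557, 0.0512 and 0.0528), Plvap and Tcp11 in 4 (0.0596 and 0.0786), Fbxo2 in 5 (0.0865) and Mfsd13a in 7 (0.12). A brighter x_at set of Mfsd13a was called at -0.87 (adjusted p = 0.0034).

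Germ cell genes, many of which are expressed in naive stem cells, included 3 of 14 lower and 1 higher. Among all genes tested 4.07% were lower and 4.84% higher. Mael, a factor of the piRNA pathway, was at 79.5, 68.5, 14.7 and 16.3 against 147, 197, 30.9 and 31.5 (-1.11 ± 0.20, adjusted p = 0.00482). Sycp3 and Ddx4 differed by -0.90 and -0.66 and lost their calls in 4 and 6 of 8 fits (at most 0.0711 and 0.153). The X-linked homeobox gene Rhox6 was higher by 0.83 and lost its call in 2 (0.106).

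Of 30 genes of the cell cycle tested, 4 were higher and 3 lower, with a median of -0.15. Over all genes 4.84% were called higher and 4.07% lower. With arrays centred on the median of all probe sets 1 was higher and 14 lower, with a median of -0.54. Mki67, the proliferation antigen, was at 969, 1093, 1112 and 1216 against 550, 568, 689 and 791 (0.77 ± 0.12, adjusted p = 0.00195), without overlap. Cenpe, a kinetochore motor, and Tyms, thymidylate synthase, were higher by 0.91 and 1.51, and Ccne2 by 0.67. Aurkb, a mitotic kinase, went the other way, at 268, 238, 188 and 208 against 429, 403, 338 and 397 (-0.80 ± 0.13, adjusted p = 0.00223), again without overlap, and Ube2c and Cdc20 differed by -0.69 and -0.41. Mki67 and Cenpe were not called with arrays centred on the median of all probe sets. Second probe sets of Tyms and Cenpe gave 0.51 and 0.70 and were not called, nor was a brighter x_at set of Cdc20, at -0.12.

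Egr1, an immediate early gene that responds within minutes to serum and handling, separated all 3 numbers. It was at 156, 158, 98.3 and 104 in replicate 1, 465, 468, 405 and 638 in replicate 2, and 53.8, 57.3, 62.4 and 67.8 in replicate 3. No value of a number overlapped with another, and replicates 2 and 3 differed by 3.02 (adjusted p = 5.21e-06). Between replicates 1 and 3 the difference was 1.07 ± 0.20 (adjusted p = 0.00647), a call lost in 1 of 8 fits at 0.0501. Fos, named after its values were seen, was at 1192, 928, 1539 and 2143 in replicate 2 and at 197 to 363 in the other numbers, and did not differ beyond the threshold between replicates 1 and 3 (-0.28, adjusted p = 0.19). Of the 21 immediate early genes, Ier3 was the 1 called lower, at -0.55, a call lost in 6 of 8 fits (at most 0.103). Egr1 was the 1 called higher, where 4.84% of all genes were called higher and 4.07% lower.

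Several groups gave few or no calls. Of 19 heat shock and chaperone genes, 20 cholesterol biosynthesis genes and 26 interferon-stimulated genes, 0 were called in either direction, with medians of -0.03, -0.06 and 0.22. The interferon list had medians of 0.56 and 0.63 in the LIF conditions and -0.34 and -0.36 in the LIF-free ones. With arrays centred on the median of all probe sets 7, 6 and 2 members of these lists were lower, and 13 of the ATF4 list. Of 25 genes of the ATF4 response, 1 was lower (Pck2, at -0.69, lost in 4 of 8 fits, at most 0.0875). Of 12 genes of class I antigen presentation, 1 was lower: the immunoproteasome subunit Psmb9, at 56.5, 59.1, 52.3 and 49.0 against 108, 116, 101 and 98.4 (-0.97 ± 0.16, adjusted p = 0.00325), without overlap. The p53 target list had 2 of 20 higher (Perp and Ccng1, at 0.56 and 0.49, lost in 2 and 4 fits, at most 0.0846 and 0.109). The ribosomal protein list had 1 of 36 higher (Rps24, at 0.60, lost in 4 fits, at most 0.124, on a set with a mean signal of 279, while 4 x_at sets at 5808 to 7634 gave -0.10 to -0.03 and were not called). With arrays centred on the median of all probe sets 28 of the 36 were lower and 0 higher. The histone list had 1 of 5 higher (H3c4, at 1.39, lost in 6, at most 0.171). The shares over all genes were 4.84% higher and 4.07% lower, and a p above the threshold does not show that levels were equal.

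Genes of the X chromosome had the highest median of any chromosome. Of 425, 45 were higher in replicate 1 (10.6%) and 10 lower (2.35%), and the median was 0.145, with 0.348, 0.208, 0.032 and 0.097 in the 4 conditions. The medians of the autosomes were between -0.115 and 0.048. On the autosomes 3.36% to 6.72% of genes were called higher and 1.92% to 6.18% lower, and over all genes 4.84% and 4.07%. Genes named after their values were seen included Nrk, Amot, Bcor, Atrx and Ogt, with differences of 1.41, 1.34, 1.17, 0.95 and 0.92. Xist, the RNA that coats an inactive X, was low, at 76.8, 78.2, 51.2 and 39.7 against 38.7, 35.3, 21.7 and 30.5 (0.94 ± 0.22, adjusted p = 0.0185). Its call was lost in 4 of 8 fits (at most 0.0996), after quantile normalization (0.0602) and with arrays centred on the median of all probe sets (0.12). Of the Y-linked genes listed, Eif2s3y and Uba1y passed the filter, at signals of 4.24 to 15.8 and 4.56 to 14.6, and neither was called.

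Whether the replicate difference itself depended on the condition was tested by interaction terms. None of the 27022 probe sets passed for LIF (0%) or for lithium (0%) in limma with the 8 arrays, with 1704 and 1272 at an unadjusted p under 0.05 and smallest adjusted p of 0.0564 and 0.937. With 2 residual degrees of freedom this test has little room. When the spread was estimated from all 12 arrays, 30 probe sets passed for LIF and 0 for lithium. Fgf5, the growth factor that marks the primed epiblast, had the largest interaction of the genes that passed with 12 arrays. Its signal with LIF was 32.6 and 27.2 in replicate 1 against 1.45 and 0.737 in replicate 3. Without LIF it was 114 and 54.6 against 143 and 151. The difference was 4.49 and 4.76 with LIF and -0.33 and -1.46 without it (interaction 5.52, adjusted p = 0.0564 with 8 arrays and 0.0174 with 12). Its size rests on replicate 3 signals close to the floor of 1. After 16 was added to every signal, the Fgf5 difference over the 4 conditions was 0.33, against 1.87 in the main fit. In that setting the smallest adjusted p for LIF over all probe sets was 0.108 with 8 arrays. Gbp2 and Gbp2b, interferon-inducible GTPases, and Rragd, a GTPase of lysosomal mTORC1 control, had interactions of 2.03, 2.05 and 2.02 (adjusted p = 0.0647, 0.0632 and 0.0769 with 8 arrays). Usp18, the protease that removes ISG15, was at 75.7 and 33.9 against 13.6 and 5.31 with LIF and at 160 and 168 against 228 and 203 without it (2.97, adjusted p = 0.0632 with 8 arrays). Usp18 was not among the genes that passed with 12 arrays. Each of these 5 genes was higher in replicate 1 in both LIF conditions and lower in both LIF-free ones. For lithium the smallest p values belonged to Psg28, Ggt5, Scyl2, Tff1 and 4933439C10Rik, and their differences with and without lithium did not pass.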

How the data were processed

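Biotin-labelled RNA of 12 cultures was hybridised to 1-colour Affymetrix mouse arrays. The deposited table holds linear signal intensities that the authors computed with MAS5, per the submitters' processing notes; version and settings are not given in the sources used here. Before log2, a floor of 1 was applied, which touched 0.146% of tested values. The table has 45037 probe sets without the 64 controls; those with a mean log2 signal above the 40th percentile (a signal of 7.52) were tested. Symbols came from the platform annotation (34945 probe sets with 1 symbol, 932 with several, 9160 with none). Updating them by gene ID in the GRCm38.p6 table matched 34741 and changed 0.

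The model, fitted with limma 3.58.1 in R 4.3.3 (lmFit, eBayes with an intensity trend), had condition as block and replicate number as the term tested, on 8 arrays with 3 residual degrees of freedom and 7.71 from the prior. The median 95% half-width of a log2 difference was 0.48. The number of arrays limits the precision. The same model compared replicates 1 and 2 and replicates 2 and 3. On simulated data for the comparison of replicates 1 and 3, tested over 27022 probe sets, 42 of 50 probe sets 4-fold higher, 32 of 50 4-fold lower, 13 of 50 2-fold higher and 18 of 50 2-fold lower were recovered, with 2 false calls. The simulated noise was independent between arrays and between probe sets, with the spread left after condition and replicate number. The simulation therefore cannot measure false calls where arrays that share a number deviate together, as they did in these data.

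Named genes were the 12 largest called differences in each direction with 1 sign in all 4 conditions and a mean signal of at least 50 in the higher number, up to 4 called members per list with the smallest p, a fixed set of pluripotency and control genes, and the 5 smallest p of each interaction; others are marked as chosen after their values were seen, or stand as list members. The members, lists and tests were chosen with earlier results of these data known. The comparison with replicate 2 was chosen after seeing the data. Plots used matplotlib 3.10.9 in Python 3.11.15. Alternatives were other scalings, floors, filters, variance models and leaving out each array.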

Additional observations from a re-analysis of the deposited data

Results flagged for a closer look

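In 4 of 149 values examined, 1 culture condition stood far from the other 3 in its difference between replicates 1 and 3; chance alone marks about 1 in 20 groups of 4 in this way. Fbxo2, which encodes a ubiquitin ligase subunit, differed by -3.31 with LIF, and by less in the other conditions. Mfsd13a differed by -2.53 with LIF. Zfp42 differed by -0.75 in the LIF-free culture with lithium, where the other conditions were close to 0. The glycolysis and hypoxia list had a median of -0.53 with LIF, against -0.23, -0.23 and -0.20 elsewhere.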

How the results depend on the processing

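Of the 3639 calls, the sign was kept in every alternative that tested them (the filter at the 60th percentile tested 2399), except for 2 probe sets with arrays centred on the median of all probe sets. That setting gave 6675 calls (1702 higher, 4973 lower), and centring on the median of the tested probe sets, added after seeing the data, gave 1715 lower. Quantile normalization gave 1298 lower. Without a filter there were 2347 calls (403 lower), and with a filter at the 60th percentile 2317 (1572 higher). Without a condition term there were 1759 (1652 higher, 107 lower), and without an intensity trend 1914 (1770 higher, 144 lower). Estimating the spread from all 12 arrays gave 1622 lower. Leaving out 1 array gave 1738 to 3293 calls, 1392 to 2597 higher and 346 to 723 lower. Replicates 1 and 2 gave 9228 calls centred on the median, 1449 without a filter and 1806 with all 12 arrays. Replicates 2 and 3 gave 112, 3 and 245 in these settings and 100 with the 60th percentile filter. The LIF interaction gave 2 calls after quantile normalization, 92 centred on the median, 2 centred on the tested probe sets, 4 with the 60th percentile filter and 30 with all 12 arrays. The cause of these differences was not tested. Of the 90 named genes called, 48 kept their call whichever array was left out; 8 were not called after quantile normalization and 24 with arrays centred on the median.

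No paired analysis was possible because the replicate number, which would be the block, is itself what is compared; arrays were paired by condition instead, and the fit without a condition term is the unpaired one. Signals near background limit the size of log2 differences.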

Other observations

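Probe sets without a symbol led the comparison by p. The set with the smallest p had a mean signal of 421 ± 54.6 (SD, n = 4) in replicate 1 and 53.6 ± 10.6 in replicate 3, with 137 in replicate 2, a difference of 2.99 ± 0.15 (SE; limma adjusted p = 2.57e-05). The next was at 356 ± 27.1 against 52.1 ± 8.65, with 115 in replicate 2. Over the 4 conditions the first ranged from 372 to 497 in replicate 1, 94.6 to 209.5 in replicate 2 and 38.7 to 61.5 in replicate 3, and the second from 329 to 392.4, 81.4 to 168 and 46.9 to 65.0. They are unnamed here.

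The early response genes placed the cultures in another order than most of the calls. Fos was lower in replicate 1 than in replicate 2 by 2.43 on the log2 scale (adjusted p = 0.000128), and Jun and Ier2 fell by 0.77 and 0.82 in the same comparison (adjusted p = 0.0145 and 0.00203), while Atf3 did not pass (-0.14, adjusted p = 0.592). These genes were named after their values were seen.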
